A study of Homo sapiens with 10 samples.

Results

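The 10 genes described here encode 5 CXC chemokines (CXCL1, CXCL2, CXCL3, CXCL5 and CXCL8), the cytokine LIF and the interleukins IL6, IL11, IL1A and IL1B. They were taken by symbol from a list drawn up with earlier results of these data known, and all 10 were found among the 16734 genes of the deposited table. MIA PaCa-2 is an established human pancreatic ductal adenocarcinoma cell line. Its cells were kept for 24 h with 10 µM hydroxyprogesterone caproate (HPC), a synthetic progestin ester, or for the same 24 h with DMSO, the solvent, in equal volume. The labels name no other treatment, and all libraries come from this 1 line. Each group has 5 libraries that the labels call biological replicates, numbered 1 to 5, with no culture day or batch given, so the tests below gauge the spread among libraries only, which may be technical.

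Poly(A) RNA was sequenced, and the values are FPKM, that is, fragments relative to the length of the gene and the size of the library. FPKM is a share of the sequenced RNA: fewer producing cells and less RNA of a gene per cell cannot be told apart, and the amount of RNA per cell was not measured. Whole reads worked back out of these values came to 65852864 to 74478618 per library with HPC and 71605811 to 82222065 with DMSO. The epithelial keratins KRT8, KRT18 and KRT19 were abundant, whereas KRT7, EPCAM and CDH1 were below 1 FPKM in every library. The summed level of the 6 epithelial markers was 213 to 229 FPKM with HPC and 182 to 199 FPKM with DMSO, but its parts differed in direction: KRT8 and KRT18 were higher with HPC, and KRT19 was lower, at 10.1 ± 1.11 FPKM with HPC and 24.0 ± 1.69 FPKM with DMSO (SD, n = 5 each; log2 fold change -1.25, adjusted p = 6.17e-09). KRT7 was also lower with HPC in the fit without a filter (-1.28). VIM, which encodes the mesenchymal filament vimentin, was at 322 to 346 FPKM with HPC and at 682 to 718 FPKM with DMSO. Of 6 leukocyte markers measured, 5 were below 1 FPKM everywhere, PTPRC (CD45) among them, and the summed level was 8.48 to 11.1 FPKM with HPC against 3.55 to 4.40 FPKM with DMSO, most of it CD68. The sum of 6 fibroblast markers was 0.786 to 1.08 FPKM with HPC against 24.6 to 27.0 FPKM with DMSO, nearly all COL1A2, while DCN and LUM were near 0. The sum of 3 endothelial markers was 0.0152 to 0.0368 FPKM with HPC against 1.43 to 1.53 FPKM with DMSO, most of it CDH5. The part of these marker differences in the results below was not tested.

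The CXC chemokines studied here carry the ELR motif before their first cysteines and attract neutrophils through the receptors CXCR1 and CXCR2. LIF, IL6 and IL11 belong to a cytokine family that shares the signalling chain gp130 (gene IL6ST) and activates JAK kinases and STAT3, with SOCS proteins as feedback inhibitors. IL1A and IL1B encode IL1α and IL1β, which bind the receptor IL1R1 with its accessory chain IL1RAP and activate NF-κB. In pancreatic cancer, tumour cells are known as a source of these chemokines, of LIF and of IL1.

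The chemokine genes lie together on chromosome 4, and their promoters are shown because CXCL1 and CXCL6 were not among the higher genes although close relatives were. Of the 10 genes, 9 matched the RefSeq promoter table (GRCh38.p14), LIF being the exception. The 150 bases before the RefSeq start are given 5′ to 3′ on the gene's own strand, with the letters GGAATTTCC, a form of the NF-κB (κB) site, in capitals. They are chr4:73740419-73740568 (plus strand) for CXCL8, chr4:73836528-73836677 (plus strand) for CXCL6, chr4:73869243-73869392 (plus strand) for CXCL1, chr4:73998678-73998827 (minus strand) for CXCL5, chr4:74038690-74038839 (minus strand) for CXCL3 and chr4:74099196-74099345 (minus strand) for CXCL2.
CXCL8: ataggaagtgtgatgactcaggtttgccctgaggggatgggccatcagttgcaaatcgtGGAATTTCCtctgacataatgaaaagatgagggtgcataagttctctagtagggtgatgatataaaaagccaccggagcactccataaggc
CXCL6: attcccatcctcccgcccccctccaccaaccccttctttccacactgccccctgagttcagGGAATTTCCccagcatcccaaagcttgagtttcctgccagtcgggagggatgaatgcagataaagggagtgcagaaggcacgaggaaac
CXCL5: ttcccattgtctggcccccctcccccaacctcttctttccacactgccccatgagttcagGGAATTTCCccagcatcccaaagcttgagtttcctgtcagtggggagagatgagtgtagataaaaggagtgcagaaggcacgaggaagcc
CXCL1: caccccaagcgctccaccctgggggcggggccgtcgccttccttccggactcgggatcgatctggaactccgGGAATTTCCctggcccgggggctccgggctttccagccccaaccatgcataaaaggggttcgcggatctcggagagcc
CXCL3: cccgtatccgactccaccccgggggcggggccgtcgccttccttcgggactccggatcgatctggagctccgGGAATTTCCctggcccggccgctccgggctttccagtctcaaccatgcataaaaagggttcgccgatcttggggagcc
CXCL2: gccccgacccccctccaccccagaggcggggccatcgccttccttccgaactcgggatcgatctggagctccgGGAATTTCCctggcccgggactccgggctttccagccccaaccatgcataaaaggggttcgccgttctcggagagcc

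The same 9 letters stand in all 6 promoters, at 91 to 83 bases before the start in CXCL8, 90 to 82 in CXCL5, 89 to 81 in CXCL6, 78 to 70 in CXCL1 and CXCL3, and 77 to 69 in CXCL2. The motif GGANTTTCC, searched on both strands, was present in 1.45% of 35116 promoter windows of 250 bases. IL6 holds GGATTTTCC at 72 to 64 bases before its start. Over the aligned 250 bases, CXCL5 and CXCL6 were 85.3% identical and CXCL1 and CXCL3 81.4%, against 43.9% for CXCL1 and CXCL8. The AP-1 letters TGANTCA, in 6.57% of the windows, were found in CXCL8 (TGACTCA, 137 to 131 bases before the start), in IL11 (TGAGTCA, 96 to 90) and before both annotated starts of IL1A. The C/EBP letters TTGCNNAA, in 9.05% of the windows, were found in CXCL2, IL6 and IL1B, and TGATGNAA (3.14%) and TGACGTCA (1.65%) in none of these windows. The motifs do not overlap each other in the genes where they were found. These motifs were picked from published knowledge of such promoters, and a match describes letters, not binding. Only full matches were counted, and the letters ttgcaaat in CXCL8 miss the C/EBP pattern by their last base.

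With HPC, transcripts of CXCL8, LIF, IL1A, CXCL2, CXCL5, CXCL3 and IL1B were higher, by 2.56-fold (IL1B) to 7.08-fold (CXCL8). CXCL1 did not pass the test, and IL6 and IL11 were at or near the bottom of the scale in both groups. The test took the 9150 genes that reached 1 FPKM in 5 or more libraries, on log2(FPKM + 0.1), a scale that understates the fold of low genes. A gene was called higher or lower at an adjusted p under 0.05 (limma, Benjamini-Hochberg over the 9150 genes). Of the 8 genes that passed the filter, 7 were higher, 0 were lower and 1 did not pass, in a comparison where 87.7% of all tested genes were called, 42.9% higher and 44.8% lower. IL1A and IL1B passed the filter through the HPC libraries alone, and so had to differ to be counted. Without a filter, over 16734 genes, 7 of all 10 were higher and 3 did not pass, with a median log2 fold change of 1.41, against 67.4% of all genes called, 31.2% higher and 36.2% lower, and a median of -0.0087. A call is thus common in this comparison, and the sizes of the changes say more: 7.54% of tested genes were called higher with a fitted fold above 2, and 1.99% with one above 4. All 7 genes were above 2-fold, and CXCL8, LIF and IL1A were above 4-fold. By log2 fold change, CXCL8 ranked 72, LIF 115 and IL1A 127 among the 9150 genes, highest first, while CXCL2 ranked 285, CXCL5 330, CXCL3 370 and IL1B 385. For the same 7 genes every HPC value was above every DMSO value, which was so for 38.5% of tested genes, with 41.1% the other way round and 79.6% without overlap in all.

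**Figure D1:**
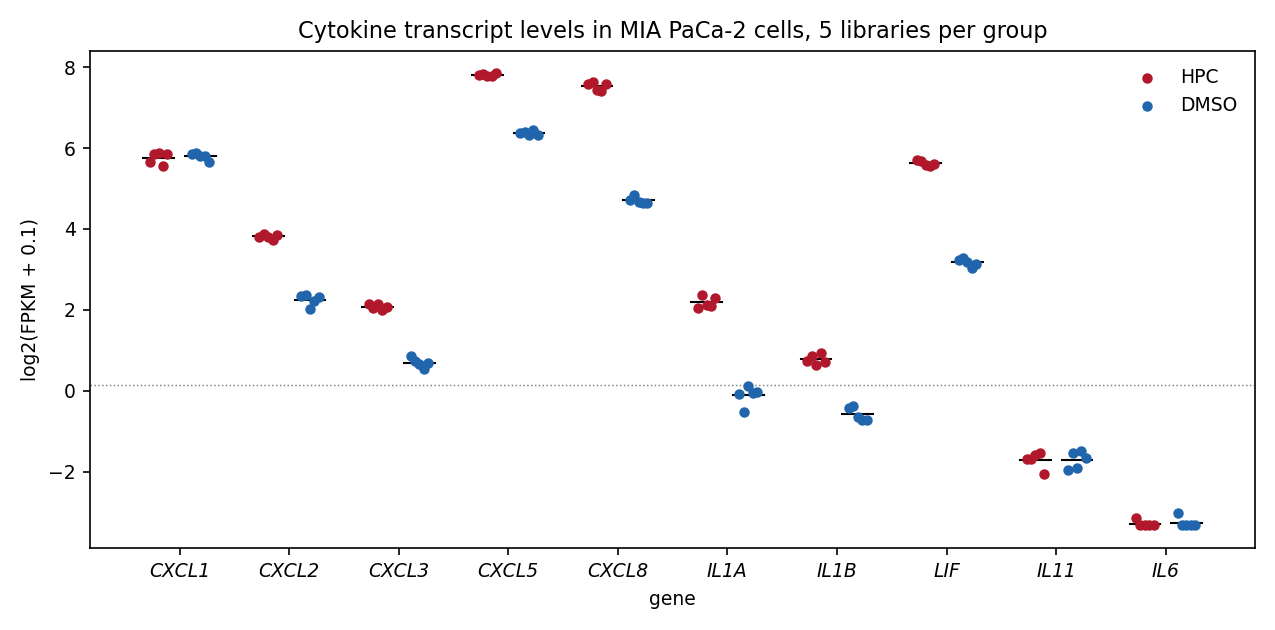
Level of each of the 10 genes in every library on the log2(FPKM + 0.1) axis, with HPC left of DMSO; points are libraries, black lines group means, and the dotted line is 1 FPKM. The HPC and DMSO points stand apart for 7 genes and overlap for CXCL1, IL11 and IL6.

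CXCL8 (ENSG00000169429), the interleukin-8 gene and the main human neutrophil chemoattractant, had the largest change of the 10 genes. Its level was 191.9, 196.7, 174.0, 170.0 and 191.3 FPKM in HPC libraries 1 to 5, against 26.4, 28.7, 25.4, 24.7 and 24.9 FPKM in DMSO libraries 1 to 5. Every HPC value was far above every DMSO value, and the HPC values were lowest in libraries 3 and 4. The log2 fold change was 2.82 ± 0.0492 (SE), a 7.08-fold difference (95% interval 6.58 to 7.63, adjusted p = 3.12e-14). It rested on 32983 to 39556 recovered reads per HPC library and 5204 to 6174 per DMSO library.

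CXCL5 (ENSG00000163735), which encodes a CXCR2 ligand first described in epithelial cells, had the highest FPKM of the 10 genes in both groups. In recovered reads it had 35577 to 39903 per HPC library, a range that overlapped the 32983 to 39556 of CXCL8. It had 224.6, 228.0, 219.8, 221.4 and 229.8 FPKM in HPC libraries, against 82.5, 84.1, 80.4, 86.7 and 80.5 FPKM in DMSO libraries. The libraries of a group lay close together, with coefficients of variation of 1.89% with HPC and 3.17% with DMSO, and the groups did not overlap. Its log2 fold change was 1.44 ± 0.0242 (SE; 2.71-fold, 95% interval 2.61 to 2.81, adjusted p = 1.37e-14).

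CXCL2 (ENSG00000081041) and CXCL3 (ENSG00000163734) encode close relatives of CXCL1 that act on CXCR2, and both were higher with HPC. CXCL2 had 13.9, 14.6, 13.9, 13.2 and 14.4 FPKM in HPC libraries, against 4.96, 5.02, 3.96, 4.54 and 4.92 FPKM in DMSO libraries. CXCL3 had 4.34, 4.03, 4.29, 3.86 and 4.12 FPKM in HPC libraries, against 1.71, 1.56, 1.47, 1.36 and 1.51 FPKM in DMSO libraries. Neither gene's groups overlapped. The log2 fold change was 1.57 ± 0.0584 for CXCL2 (2.96-fold, adjusted p = 2.41e-11) and 1.38 ± 0.0541 for CXCL3 (2.61-fold, adjusted p = 3.00e-11; SE). The transcripts of the pair share stretches of 100 bases, 5.00% of those of CXCL2 and 3.27% of those of CXCL3, so a few reads could be assigned to either gene. CXCL1 shared no such stretch with CXCL2, CXCL3, CXCL5, CXCL6 or CXCL8.

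CXCL1 (ENSG00000163739), the melanoma growth-stimulating chemokine of the same family, was not higher with HPC, unlike CXCL2, CXCL3, CXCL5 and CXCL8. It had 50.3, 57.8, 58.8, 47.0 and 58.1 FPKM in HPC libraries, against 57.9, 58.6, 55.7, 55.6 and 50.5 FPKM in DMSO libraries. The groups overlapped, and HPC libraries 1 and 4 were the lowest values of all 10. The log2 fold change was -0.036 (95% interval -0.18 to 0.11, adjusted p = 0.608), so that the interval leaves room for a fall to 0.882 of the DMSO level and for a rise to 1.08 times it. With HPC replicate 4 left out the value was 0.015, and after median-of-ratios scaling 0.017. With quantile normalization CXCL1 passed as lower (-0.21, adjusted p = 0.00265), as did 43.5% of tested genes, and likewise when the 13 mitochondrially encoded genes were left out of the library sum (-0.20), where 54.8% of tested genes were called lower. That last scaling moved the median log2 fold change of all tested genes to -0.18, against -0.014, and the split of calls to 2957 higher and 5015 lower, so that 62.9% of calls were lower, against 51.1%. Relative to that median, CXCL1 lay at about the middle of all genes. With quantile normalization the median was -0.00031, and there CXCL1 (-0.21) lay below it.

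The make-up of the chemokine transcripts differed with it. FPKM divides by a length for each gene, and how that length was defined is not given in the sources used here. Orders and shares between genes are therefore those of FPKM values and may differ from those of transcript numbers. A comparison of the same gene between the groups does not depend on that length. The 5 CXC genes summed to 482 ± 19.1 FPKM with HPC and 171 ± 6.08 FPKM with DMSO (SD, n = 5 each). CXCL8 held 38.3 ± 1.15% of that sum with HPC and 15.2 ± 0.648% with DMSO, and CXCL1 held 11.3 ± 0.925% with HPC and 32.6 ± 0.971% with DMSO, both without overlap between the groups. CXCL5 kept the largest share in both groups (46.7 ± 1.17% with HPC and 48.5 ± 1.27% with DMSO), and CXCL2 (2.91 and 2.74%) and CXCL3 (0.857 and 0.892%) held small ones. For these 3 genes the shares of the groups overlapped. In HPC libraries the order of FPKM values was CXCL5, CXCL8, then CXCL1 and LIF, whose ranges overlapped. CXCL2 came next, then CXCL3 and IL1A, whose ranges overlapped, then IL1B, IL11 and IL6. In DMSO libraries the order was CXCL5, CXCL1, CXCL8, LIF, CXCL2, CXCL3, then IL1A and IL1B, whose ranges overlapped, then IL11 and IL6. CXCL8 thus stood above CXCL1 in every HPC library and below it in every DMSO library. In recovered reads, unlike in FPKM, IL1B stood above IL1A in every library of both groups.

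**Figure D2:**
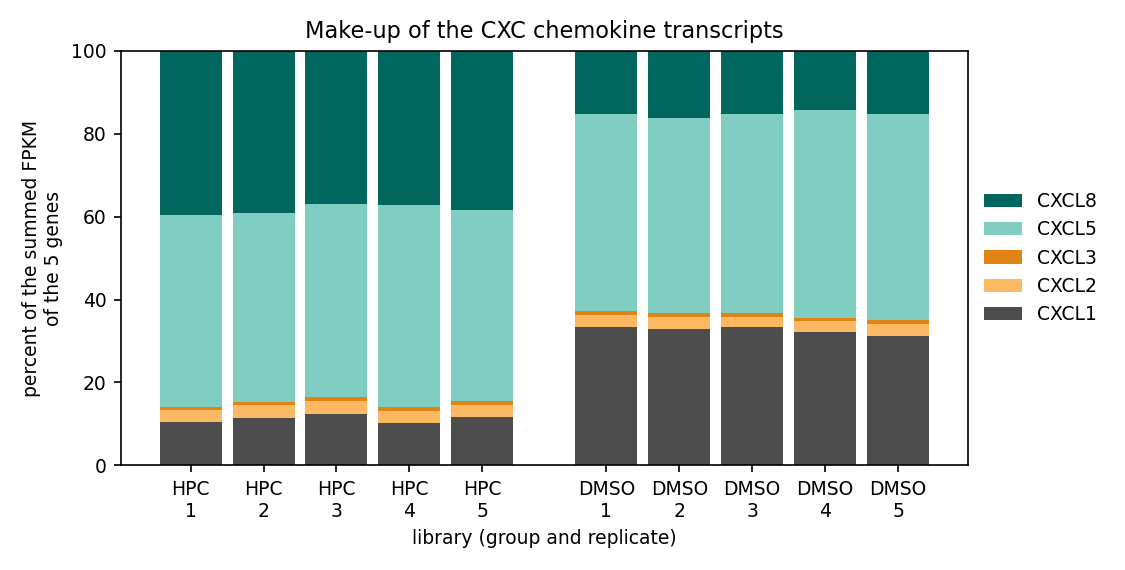
Percent of the summed FPKM of the 5 CXC genes held by each gene (vertical axis) in each library, HPC libraries left of DMSO libraries. CXCL8 takes 36.9 to 39.6% in HPC libraries and 14.3 to 16.1% in DMSO libraries, CXCL1 10.3 to 12.5% in HPC libraries and 31.1 to 33.4% in DMSO libraries, and CXCL5 is the largest block in every library.

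Along chromosome 4 (GENCODE 29, GRCh38) the genes stand in the order CXCL8, CXCL6, PF4V1, CXCL1, PF4, PPBP, CXCL5, CXCL3 and CXCL2, with CXCL8, CXCL6, PF4V1 and CXCL1 on the plus strand and the others on the minus strand. The cluster runs from CXCL8, which starts at 73740506, to CXCL2, which ends at 74099293. For the printed promoters other than that of CXCL1, the gene reaches further upstream here than the RefSeq start. Those windows thus lie partly, and for CXCL6 wholly, within the gene as annotated here. CXCL6, which encodes a ligand of CXCR1 and CXCR2, was lower with HPC although its neighbour CXCL8 was higher. It had 2.63, 2.85, 3.35, 3.37 and 3.38 FPKM in HPC libraries, against 6.75, 6.36, 6.49, 6.91 and 7.07 FPKM in DMSO libraries. The groups did not overlap, and the log2 fold change was -1.09 ± 0.0668 (SE, adjusted p = 3.56e-09). CXCL6 and CXCL5 thus moved in opposite directions, though their promoter windows of 250 bases were the most alike of the pairs compared. The other 3 genes of the cluster, named after their values were seen, were below 1 FPKM in every library. PPBP, the platelet basic protein gene, had 0.236 to 0.743 FPKM with HPC and 0.0279 to 0.139 FPKM with DMSO, with a log2 fold change of 1.25 in the fit without a filter (adjusted p = 0.00101), on 23 to 64 recovered reads per HPC library and 3 to 13 per DMSO library. PF4, platelet factor 4, had 0.389 ± 0.273 FPKM with HPC and 0.481 ± 0.256 FPKM with DMSO (SD, n = 5 each) and did not pass (adjusted p = 0.467), nor did PF4V1, listed at 0 in 9 of 10 libraries.

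**Figure D3:**
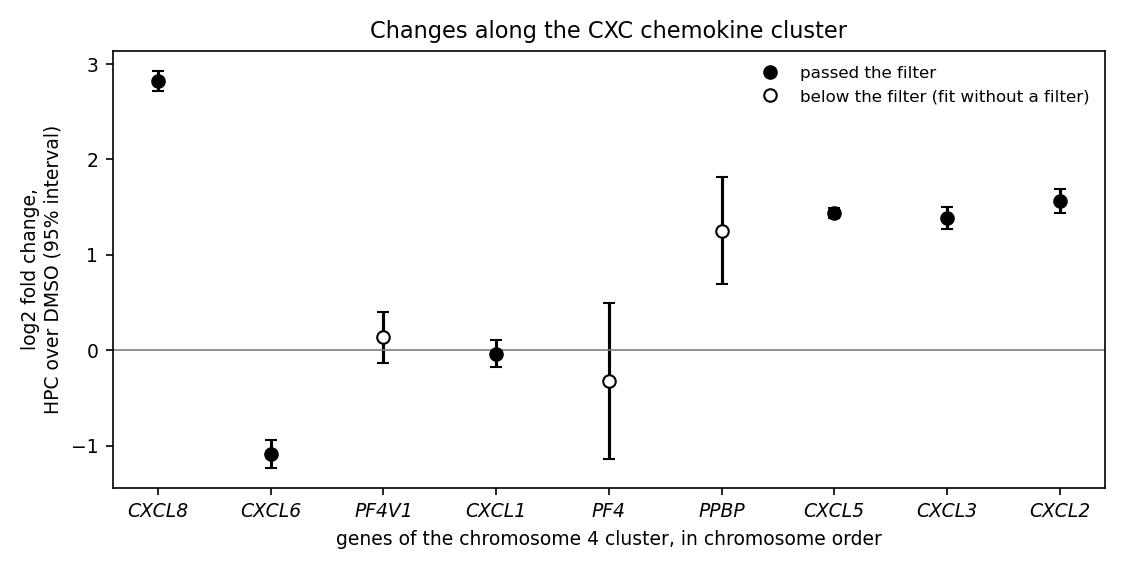
Log2 fold change, HPC over DMSO, with its 95% interval (vertical axis) for the genes of the chromosome 4 cluster in chromosome order; filled points passed the filter and open points come from the fit without a filter. CXCL8 stands highest at 2.82, CXCL5, CXCL3 and CXCL2 lie between 1.38 and 1.57, CXCL1 at -0.036 and CXCL6 at -1.09.

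LIF (ENSG00000128342), on chromosome 22, encodes leukaemia inhibitory factor, which acts through LIFR and gp130. Its level was 51.8, 51.5, 47.9, 46.9 and 48.7 FPKM in HPC libraries, against 9.23, 9.59, 8.93, 8.16 and 8.73 FPKM in DMSO libraries. The groups were far apart, and the value in every HPC library was above 5 times the DMSO mean. The log2 fold change was 2.45 ± 0.0424 (SE), or 5.48-fold (95% interval 5.14 to 5.84, adjusted p = 1.72e-14). At 49.4 ± 2.18 FPKM with HPC, LIF stood near CXCL1 at 54.4 ± 5.39 FPKM (SD, n = 5). With DMSO, LIF was at 8.93 ± 0.536 FPKM and CXCL1 at 55.7 ± 3.17 FPKM.

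IL1A (ENSG00000115008) encodes IL1α, whose precursor is already active and is released by damaged cells. It had 4.05, 5.05, 4.26, 4.21 and 4.82 FPKM in HPC libraries, against 0.855, 0.591, 0.990, 0.867 and 0.881 FPKM in DMSO libraries. The groups did not overlap, and DMSO library 2 was the lowest. The log2 fold change was 2.30 ± 0.108 (SE; 4.92-fold, 95% interval 4.18 to 5.80, adjusted p = 5.65e-10), on 590 to 733 recovered reads per HPC library and 92 to 173 per DMSO library.

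IL1B (ENSG00000125538), the neighbour of IL1A on chromosome 2, encodes IL1β, which must be cut by a protease such as caspase-1 to become active. It had 1.56, 1.73, 1.46, 1.82 and 1.53 FPKM in HPC libraries, against 0.640, 0.674, 0.535, 0.506 and 0.512 FPKM in DMSO libraries. Again the groups did not overlap, although the HPC level stayed below 2 FPKM. The log2 fold change was 1.36 ± 0.0825 (SE; 2.56-fold, 95% interval 2.26 to 2.90, adjusted p = 2.77e-09). It rested on 710 to 848 recovered reads per HPC library and 256 to 349 per DMSO library, more than for IL1A in each library.

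IL6 (ENSG00000136244), on chromosome 7, encodes the founding member of the gp130 cytokines, and it was hardly seen. It was listed at 0 in 8 libraries, with 0.0132 FPKM in HPC library 1 and 0.0228 FPKM in DMSO library 1. IL11 (ENSG00000095752), on chromosome 19, encodes a gp130 cytokine tied to fibrosis and blood formation. Its level was 0.212, 0.211, 0.232, 0.242 and 0.139 FPKM in HPC libraries, against 0.156, 0.247, 0.169, 0.255 and 0.215 FPKM in DMSO libraries. The IL11 groups overlapped throughout, and no difference was detectable on 48 to 91 recovered reads per HPC library and 61 to 96 per DMSO library (log2 fold change -0.0032, 95% interval -0.28 to 0.27, adjusted p = 0.983, fit without a filter). For IL6 the same fit gave -0.023 (adjusted p = 0.769), a value that rests on single libraries. Among the gp130 cytokines of the set, LIF was thus the abundant and changed gene.

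The receptors of these cytokines were counted next. For this list and those below, 42.9% of all tested genes were higher and 44.8% lower. Without a filter the shares over all genes were 31.2% and 36.2%. Of the 13 receptor genes listed, 11 were measured and 4 tested: IL6ST, LIFR and OSMR were higher and IL1R1 was lower, with a median of 0.53 on the log2 scale. Without a filter, 6 of 11 were higher, 3 were lower and 2 did not pass. CXCR2 was listed at 0 in all but HPC library 1 (0.0195 FPKM), and CXCR1 was not analysed here. LIFR, the ligand-binding chain for LIF, was at 2.70 ± 0.111 FPKM with HPC and 1.43 ± 0.102 FPKM with DMSO (log2 fold change 0.88 ± 0.0486 (SE), adjusted p = 1.02e-09). IL6ST, the shared gp130 chain, was at 7.08 ± 0.110 FPKM with HPC and 4.76 ± 0.106 FPKM with DMSO (log2 fold change 0.56, adjusted p = 1.52e-10), and OSMR, the oncostatin M chain, was higher by 0.49. IL6R was at 0.661 ± 0.126 FPKM with HPC and 0.153 ± 0.0378 FPKM with DMSO (fit without a filter, log2 fold change 1.59, adjusted p = 7.68e-07). IL11RA, at 0.0606 ± 0.0350 FPKM with HPC and 0.107 ± 0.0337 FPKM with DMSO, did not pass (adjusted p = 0.066). LIF and both chains of its receptor were therefore higher with HPC.

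The receptor for IL1 went the other way from its ligands. IL1R1 had 3.16, 3.06, 3.18, 3.51 and 3.20 FPKM in HPC libraries, against 8.51, 8.80, 10.6, 9.95 and 10.0 FPKM in DMSO libraries. The groups did not overlap, and the log2 fold change was -1.54 ± 0.0581 (SE, adjusted p = 2.32e-11). Its accessory chain IL1RAP was low in FPKM, at 0.331 ± 0.0338 with HPC and 0.0806 ± 0.0116 with DMSO (SD, n = 5 each). These values rested on 897 to 1265 recovered reads per HPC library and 235 to 340 per DMSO library. IL1RAP was higher in the fit without a filter (1.25, adjusted p = 3.15e-08). Of 11 IL1 signalling genes, 10 were measured, and of 8 tested, 7 were higher and 1, TAB1, was lower (-0.72; named after its value was seen). The median log2 fold change was 0.45. MAP3K7, the kinase TAK1, was the least certain of the 7 and was also named after its value was seen: its groups overlapped and it passed narrowly (0.071, adjusted p = 0.0462). It no longer passed as higher with the replicate block, TPM rescaling, the non-mitochondrial sum, a threshold of 0.01 or in 7 of 10 fits without 1 library, which left 6 higher. IRAK2, a kinase of the IL1 receptor complex, was higher by 1.06 (adjusted p = 5.79e-11), TAB3 by 0.81, TRAF6, the ubiquitin ligase of the pathway, by 0.69, and IRAK1 by 0.54. The adaptor gene MYD88, also named after its value was seen, was at 0.101 ± 0.0136 FPKM with HPC and 0.363 ± 0.0285 FPKM with DMSO. It was lower in the fit without a filter (-1.20, adjusted p = 2.39e-08), on 223 to 335 recovered reads per HPC library and 889 to 1222 per DMSO library.

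Genes that process or release IL1 were mixed: of 12 measured and 5 tested, 2 were higher and 3 lower (median -0.19), and without a filter 5 were higher, 4 lower and 3 did not pass. CAPN1, a calpain protease subunit, was at 2.32 ± 0.101 FPKM with HPC and 5.51 ± 0.120 FPKM with DMSO (log2 fold change -1.22, adjusted p = 1.40e-12). CAPN2 (-0.21) and CASP8 (-0.19, named after its value was seen) were also lower. The inflammatory caspase gene CASP4 was at 5.02 ± 0.213 FPKM with HPC and 2.70 ± 0.0998 FPKM with DMSO (0.87, adjusted p = 8.67e-11), and the pore-forming GSDME was higher by 0.68, passing the filter through the HPC libraries alone. CASP1, the protease that cuts IL1β, was low in both groups, at 0.0474 ± 0.0152 FPKM with HPC and 0.0807 ± 0.0189 FPKM with DMSO (fit without a filter, -0.29, adjusted p = 0.012; named after its values were seen).

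Of 12 JAK-STAT signalling and feedback genes, 10 were tested, of which 7 were higher and 3 lower, with a median log2 fold change of 0.74. Over all tested genes, 42.9% were higher and 44.8% lower. The lower ones were STAT3, PIAS3 and TYK2. STAT3, the factor that carries the LIF signal to the nucleus, had 9.16, 9.38, 9.57, 9.65 and 9.65 FPKM in HPC libraries, against 21.0, 21.6, 24.4, 23.8 and 24.4 FPKM in DMSO libraries. The groups did not overlap, and the log2 fold change was -1.27 ± 0.0430 (SE, adjusted p = 7.59e-12). PIAS3, which encodes an inhibitor of STAT3, was lower by a log2 change of -0.89, and the kinase gene TYK2 by -0.59, both named after their values were seen. PIM1, a kinase gene that STAT factors are known to induce, was at 25.3 ± 3.03 FPKM with HPC and 3.36 ± 0.273 FPKM with DMSO (2.87, adjusted p = 1.62e-11). The feedback inhibitor SOCS3 was at 5.28 ± 0.424 FPKM with HPC and 3.11 ± 0.357 FPKM with DMSO (0.75, adjusted p = 6.30e-07). SOCS1, named after its values were seen, was higher by 2.43 and passed the filter through the HPC libraries alone. JAK1 (0.80) and the phosphatase gene PTPN11 (0.79) were higher as well.

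Cytokine transcripts are short-lived, and AU-rich letters in their 3′ ends are bound by decay factors. Of 16 genes for decay and stability, 14 were tested, with 6 higher and 6 lower, and a median log2 fold change of -0.0087. The other 2, ZC3H12A (-0.091) and TIAL1 (0.074), did not pass and were named after their values were seen. ZFP36, which encodes tristetraprolin, a protein that speeds the decay of such transcripts, was at 3.93 ± 0.330 FPKM with HPC and 0.706 ± 0.0716 FPKM with DMSO (SD, n = 5 each). Its log2 fold change was 2.32 ± 0.0722 (SE, adjusted p = 3.36e-12), and it passed the filter through the HPC libraries alone. Its relatives ZFP36L1 (0.83) and ZFP36L2 (0.72) were also higher, and TIA1, a translational silencer, was lower (-0.68).

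**Figure D4:**
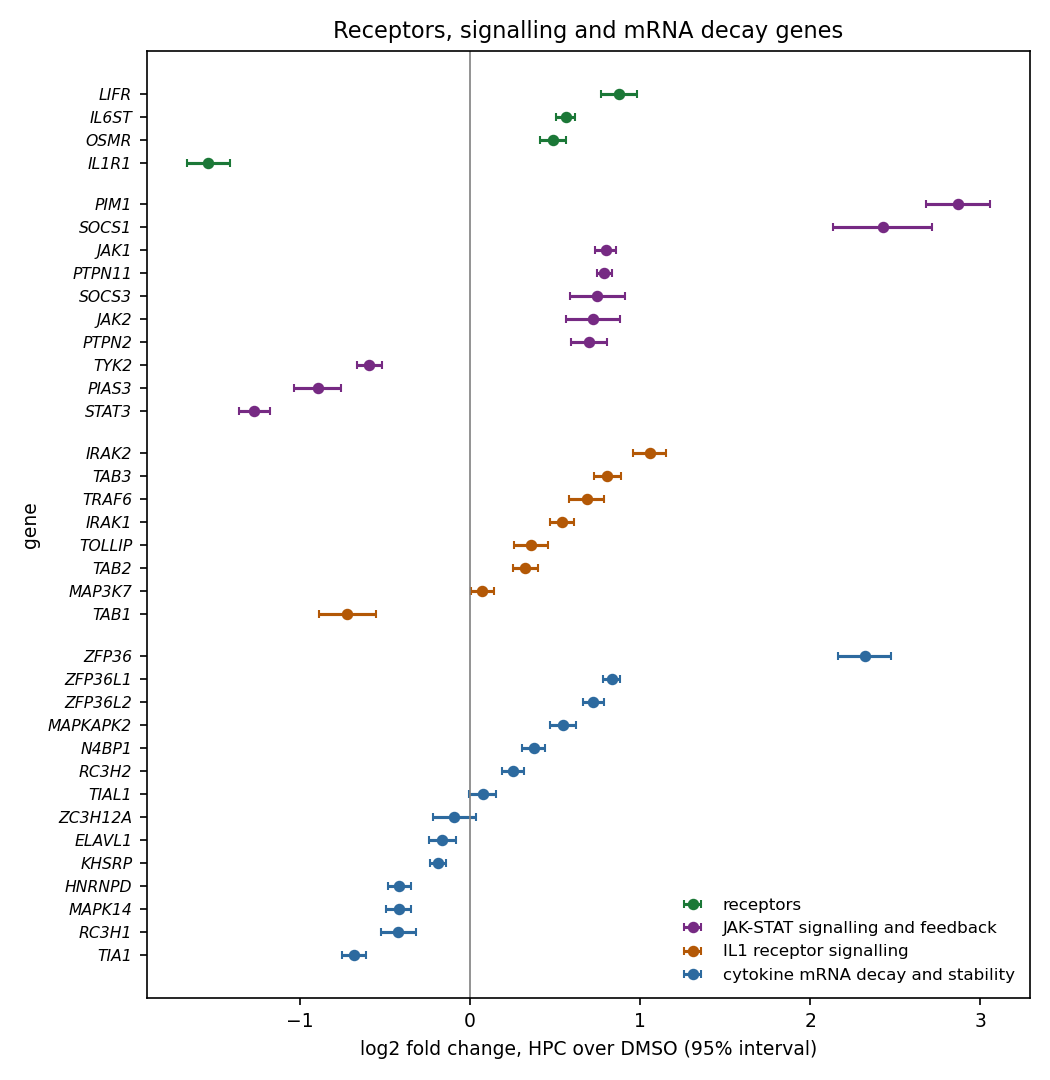
Log2 fold change, HPC over DMSO, with its 95% interval (horizontal axis) for the tested genes of 4 lists, sorted within each list. STAT3 at -1.27 and IL1R1 at -1.54 lie far to the left, and PIM1 at 2.87 and ZFP36 at 2.32 to the right.

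Within the 3′ untranslated regions of the main GENCODE 29 transcripts, the pentamer ATTTA, the core of AU-rich elements, occurred at 2.18 per kilobase in LIF to 14.0 per kilobase in IL6. The median over 16109 genes was 1.45 per kilobase, and 9.26% of genes had at least 5. CXCL1 (7.08 per kilobase) and CXCL8 (7.19 per kilobase) had nearly the same density, with log2 fold changes of -0.036 and 2.82. CXCL2 had 13.9, CXCL3 10.4, IL1B 9.84, IL11 5.56, CXCL5 5.51 and IL1A 4.34 per kilobase. Overlapping pairs (ATTTATTTA) numbered 4 in CXCL2, 3 in IL11, 2 in CXCL1, 2 in IL1B and 1 in CXCL8, and 6.43% of genes had at least 1. Densities of at least 5 stood in CXCL2, CXCL3, CXCL5, CXCL8 and IL1B, which were higher with HPC, and in CXCL1, which did not pass. LIF and IL1A, also higher, had lower densities. CXCL6, outside the set and lower with HPC (-1.09), had 5.36 per kilobase. IL6 and IL11 had at least 5 too, but both were at or near the bottom of the scale in both groups. The part of these letters in the changes was not tested.

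Of 18 transcription factor genes known from cytokine promoters, all 18 were tested: 16 were higher, 0 were lower, and NFKB1 (0.055) and BCL3 (-0.14), named after their values were seen, did not pass, beside 42.9% higher and 44.8% lower over all tested genes. Their median log2 fold change was 1.51. FOS and ATF3, both named after their values were seen, passed the filter through the HPC libraries alone. DDIT3 reached 1 FPKM in 1 DMSO library only, so these 3 genes had to differ to be counted. Without a filter the counts were also 16 higher and 0 lower. CEBPB, a C/EBP factor of inflammatory genes, was at 149 ± 7.60 FPKM with HPC and 13.7 ± 0.624 FPKM with DMSO (3.44, adjusted p = 1.17e-15). The stress factor genes ATF4 (2.16), CEBPG (2.43) and DDIT3 (5.25) were higher too. NFKBIZ, which encodes IκBζ, a co-activator on NF-κB target genes, was at 2.55 ± 0.253 FPKM with HPC and 1.40 ± 0.152 FPKM with DMSO (0.83, adjusted p = 4.42e-07). Of the NF-κB subunits, NFKB2 (1.40), RELB (1.38), RELA (0.83) and REL (0.26, with overlapping groups) were higher, and NFKB1 did not pass. All of them were named after their values were seen.

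Among tested genes, the patterns over the 10 libraries nearest to CXCL8, by Euclidean distance between centred log2 values, were those of CD55 (distance 0.235), HSPA5 (0.248) and RHOB (0.275). CD55, a complement regulator, was at 5.17 ± 0.515 FPKM with HPC and 0.635 ± 0.0568 FPKM with DMSO. HSPA5, the endoplasmic reticulum chaperone BiP, was at 1116 ± 93.5 FPKM with HPC and 166 ± 4.65 FPKM with DMSO, and RHOB, a small GTPase, at 92.8 ± 5.96 FPKM with HPC and 12.1 ± 0.802 FPKM with DMSO. Nearest to LIF were MAP1LC3B (0.148), an autophagy gene, the small MAF factor gene MAFF (0.172) and TNFRSF12A (0.209), the receptor for TWEAK. With 2 groups so far apart, these distances mostly reflect the size of the difference between the groups.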

How the data were processed

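RNA from 10 libraries was analysed, 5 of MIA PaCa-2 cells in HPC and 5 in DMSO. Per the labels' protocols, RNA was extracted with TRIzol, selected with oligo(dT), reverse-transcribed with random primers and sequenced as paired-end reads. Tools in the submitters' processing notes are edgeR, fastp 0.23.2 and STAR 2.7.7a, with the build GRCh38.p13. For the read counter, its use of strand and the annotation, the entry is: not given in the sources used here. Deposited by the authors were FPKM values for 16734 genes, and no counts were used.

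For 15207 of 15208 genes above 0 in at least 3 libraries, FPKM values were whole multiples of the value of 1 read, within 0.0001 of a read. These recovered reads gave depth and an alternative with limma's voom. Values were fitted as log2(FPKM + 0.1) in limma 3.58.1 (R 4.3.3; two-sided, empirical Bayes with its trend and robust settings, Benjamini-Hochberg at 0.05), after a filter of 1 FPKM in 5 libraries. Errors are SD over 5 libraries or SE of the fit. The procedure was tested on simulated data. Within-group pairs differed by 13.2 to 32 times counting noise (chi-square per degree of freedom), so none was taken for a copy.

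The 10 genes and all lists were chosen with earlier results of these data known. Named from the lists were 13 genes taken regardless of value (CXCR1 and IL1RN not analysed here) and the 4 genes of each list with the smallest p, and genes outside that rule are marked as such in the text. Promoters came from RefSeq (GRCh38.p14) and 3′ ends from GENCODE 29, aligned with Biopython 1.88. Figures used matplotlib 3.10.9. Alternatives changed the pseudocount, filter, scaling, variance model, threshold, block and libraries included.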

Additional observations from a re-analysis of the deposited data

Results flagged for a closer look

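Groups of 5 libraries were checked for 75 of the genes named, 147 groups in all. Of these, 11 held a library set apart by a gap to its nearest neighbour above 0.71 of the group's range. Chance alone gives about 1 in 20. IL6 had 0.0132 FPKM in HPC replicate 1 and 0.0228 FPKM in DMSO replicate 1, CXCR2 had 0.0195 FPKM and PF4V1 had 0.0585 FPKM in HPC replicate 1, each with the other libraries of its group listed at 0. PPBP had 0.743 FPKM in HPC replicate 5, against 0.236 to 0.371 FPKM in the other HPC libraries. PF4 had 0.927 FPKM in DMSO replicate 2, above the 0.277 to 0.423 FPKM of the other DMSO libraries. IRAK2 had 9.65 FPKM in HPC replicate 3, against 8.49 to 8.75 FPKM in the other HPC libraries. PIAS3 had 3.02 FPKM in HPC replicate 1, just below the 3.11 to 3.13 FPKM of the others. LIFR had 1.60 FPKM in DMSO replicate 1, against 1.36 to 1.41 FPKM in the other DMSO libraries. TYK2 had 3.71 FPKM in DMSO replicate 3 and GSDME 0.913 FPKM in DMSO replicate 5, each the lowest of its group. None of CXCL1, CXCL2, CXCL3, CXCL5, CXCL8, LIF, IL11, IL1A or IL1B had such a library in either group.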

How the results depend on the processing

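Over 23 alternatives, the 7 higher genes stayed above 0 and past the threshold wherever they were tested, with log2 fold changes of 2.64 to 2.88 for CXCL8, 2.29 to 2.51 for LIF, 1.58 to 2.49 for IL1A, 1.40 to 1.62 for CXCL2, 1.18 to 1.49 for CXCL5, 1.02 to 1.44 for CXCL3 and 0.73 to 1.56 for IL1B. A filter of 5 FPKM left CXCL3, IL1A and IL1B untested, so 4 genes were higher, and 1969 genes in all were higher and 1836 lower. CXCL1 ranged over -0.21 to 0.02 (adjusted p 0.00265 to 0.898), so that 1 gene was lower after quantile normalization and with the non-mitochondrial sum, and it reversed to 0.017 with median-of-ratios scaling and to 0.015 without HPC replicate 4, with a range of -0.071 to 0.015 when single libraries were left out. IL11 reversed to 0.032 with median-of-ratios scaling, 0.20 with quantile normalization and 0.010 with voom, and ranged over -0.067 to 0.085 when single libraries were left out, and IL6 over -0.059 to 0.036, the last without DMSO replicate 1. With the non-mitochondrial sum, TIAL1 (-0.091), NFKB1 (-0.11) and MAP3K7 (-0.093) turned below 0, and over single-library omissions MAP3K7 ranged over 0.063 to 0.090. Filters alter which genes are tested: with no filter, 0.1 FPKM and 5 FPKM in turn, other cytokines had 9, 7 and 0 higher. The lower other cytokines were 3 with no filter and 3 at 0.1 FPKM, receptors 6 and 5 higher and 3 and 2 lower, CC chemokines 3 and 2 lower, and IL1 signalling genes 3 and 3 lower, with 3 higher and 0 lower at 5 FPKM and 2 lower with the non-mitochondrial sum. Other CXC genes had 1 higher with no filter and at 0.1 FPKM, and 4 lower with no filter and 1 at 5 FPKM. IL1 processing genes had 5 higher with no filter and 0 at 5 FPKM, and JAK-STAT genes 3 higher at 5 FPKM. Of the transcription factors, 1 was lower with TPM rescaling, 2 with the non-mitochondrial sum, and 0 to 1 when 1 library was left out. The cause was not tested for the scalings.

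The replicate numbers do not pair the libraries: deviations of same-numbered libraries correlated at -0.0593 to 0.199, and only numbers 3 and 5 correlated best with their own. With the replicate number as a block, 7 of the tested genes of the set were higher and 0 lower, and 3892 genes in all were higher and 4077 lower. IL6, IL11 and PF4V1 are limited by depth, and counting error alone does not cover the spread between libraries.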

Other observations

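Other secreted signals, described after their values were seen except for CXCL16, CLCF1, CTF1, CSF1 and CSF3, gave a mixed picture. Of 6 other CXC genes measured, the 2 that were tested, CXCL6 and CXCL16 (-0.48), were both lower. CXCL10, an interferon-induced chemokine, was at 0.0302 ± 0.0448 FPKM with HPC and 0.304 ± 0.0685 FPKM with DMSO (fit without a filter, -1.68, adjusted p = 2.43e-05). None of 8 CC and related chemokine genes measured passed the filter, and without a filter 0 were higher and 3 lower.

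Of 21 other cytokine genes measured, 4 were tested, 3 higher and 1 lower (median 0.47), and without a filter 9 were higher, 3 lower and 9 did not pass. The gp130 cytokine gene CLCF1 was at 3.81 ± 0.474 FPKM with HPC and 1.70 ± 0.221 FPKM with DMSO (1.12, adjusted p = 2.55e-07), CTF1 was higher by 0.34 and CSF3, the granulocyte growth factor, by 0.60. CSF1, the macrophage growth factor, was at 6.80 ± 0.564 FPKM with HPC and 10.1 ± 0.598 FPKM with DMSO (-0.57, adjusted p = 5.46e-07). IL23A, a subunit of interleukin-23, was at 0.903 to 1.32 FPKM with HPC and 0.0954 to 0.132 FPKM with DMSO (fit without a filter, 2.48, adjusted p = 1.03e-09), and IL12A was higher by 1.06. TSLP, an epithelial alarmin, was at 0.119 to 0.227 FPKM in the 5 HPC libraries and listed at 0 in the 5 DMSO libraries.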
